A study of Mus musculus with 12 samples.

Results

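The newly generated alpha cells of the fetal mouse pancreas were set against both the cells without the alpha cell reporter and the more differentiated alpha cells, to find genes that turned in the newly generated cells instead of stepping from non-alpha to more differentiated alpha cells. Group A was the green dominant, newly generated alpha cells, group N the non-alpha cells and group B the green and red, more differentiated alpha cells. Members were genes whose 4 A values all lay above, or all below, all 8 values of N and B. Of 17230 genes with enough counts to be tested, of 55417 in the table, 183 were members, 96 with every A value above (0.557% of the genes tested) and 87 with every A value below (0.505%).

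Alpha cells arise in the fetal pancreas from progenitors that switch on the transcription factor Neurog3, leave the cell cycle and begin to make hormone. Early islet cells of the mouse embryo can carry more than 1 hormone message, and peptide YY is found widely among them. Epsilon cells make ghrelin and PP cells make pancreatic polypeptide, and cells with both ghrelin and glucagon have been described in the mouse embryo. Genes of mitosis and DNA replication are transcribed in dividing cells and are largely shut off in resting ones.

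All 12 samples came from Gcg-Timer mice at stage E17.5, and the pancreas was dissociated and sorted by fluorescence into A, N and B, with 4 libraries each. Replicates were from different mothers. The labels do not say whether the pancreata of a litter were pooled. The timer reporter marks cells by the glucagon gene, so N holds every reporter-negative pancreatic cell and is no purified precursor of A. The libraries were made with an mRNA-Seq kit, and the authors deposited estimated counts per gene, which totalled 18168677 to 25873635 in A, 32114292 to 38545756 in N and 16216967 to 24259218 in B. Values below are normalised CPM (counts scaled to library size with edgeR's TMM factors), and differences are log2 fold differences of A over N or of A over B with their standard errors.

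The groups differed in the share of counts taken by markers of other cell types. Erythroid genes took 0.167% ± 0.0858 of raw counts in A, against 14.5% ± 7.81 in N and 0.0679% ± 0.0337 in B (SD, n = 4). Acinar genes took 7.14% ± 1.45 in A, against 17.7% ± 4.05 in N and 4.29% ± 1.89 in B. Mesenchymal genes took 0.333% to 1.30% in A, against 0.979% to 2.15% in N and 0.0519% to 0.169% in B. A held more mesenchymal and acinar message than B in each numbered pair of libraries, and far less erythroid message than N. The TMM factors were 1.12 to 1.18 in A, 0.732 to 0.81 in N and 1.10 to 1.14 in B, and a value set against N rests on that correction. In sorted bulk samples, fewer cells of a type and less RNA per cell cannot be told apart.

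The alpha cell labels were set beside genes that stepped. Gcg, which encodes glucagon, stood at 13044, 12561, 13976 and 21975 CPM in the 4 A libraries, against 99.9, 142, 99.5 and 66.3 CPM in N and 35220, 31253, 34891 and 47704 CPM in B. Each A library thus lay between every N and every B library. EGFP averaged 717 ± 199 CPM in A, against 2.10 ± 1.10 CPM in N and 3259 ± 175 CPM in B, and mRFP1 averaged 922 ± 247, 2.64 ± 1.55 and 4211 ± 211 CPM in the same order. Both are the fluorescent reporters themselves, and the reporter marks cells by the glucagon gene. The levels of EGFP, mRFP1 and Gcg are thus tied to the sort and are no independent check of the labels. Gcg also stands on the list of alpha cell identity genes. Of 17 tested alpha cell identity genes, A exceeded N for 15 (23.8% of all genes tested) and fell below N for 2 (21.3% of all genes tested). A fell below B for 6 of them (4.63% of all genes tested), and 0 were members. At an unadjusted p under 0.05 against both groups 0 of the 17 turned, and with DESeq2 0 did.

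The contrast of A with the equal-weight average of the log2 means of N and B called 1341 genes higher (7.78% of 17230) and 349 lower (2.03%) at an adjusted p of 0.05 (edgeR's quasi-likelihood test). Of the 1341 higher calls, 876 had an A mean between the N and B means, as did 71 of the 349 lower. These were no turns, though such a mean alone does not make a step. Over all 17230 genes tested, A lay above both groups in 2722 and below both in 2813. An A mean between the others was thus common, and the 876 are no trait of the higher calls. A turn needs A to differ from N and from B in the same direction. Both differences passed the test for 40 genes higher in A (0.232%) and 65 lower in A (0.377%). Without A replicate 1 the counts were 20 and 29, and without N replicate 2 they were 51 and 98. Of the genes called, 31 of the 40 and 47 of the 65 were also members. The rule for members rests on the same values, so these counts are given as a description.

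**Figure D1:**
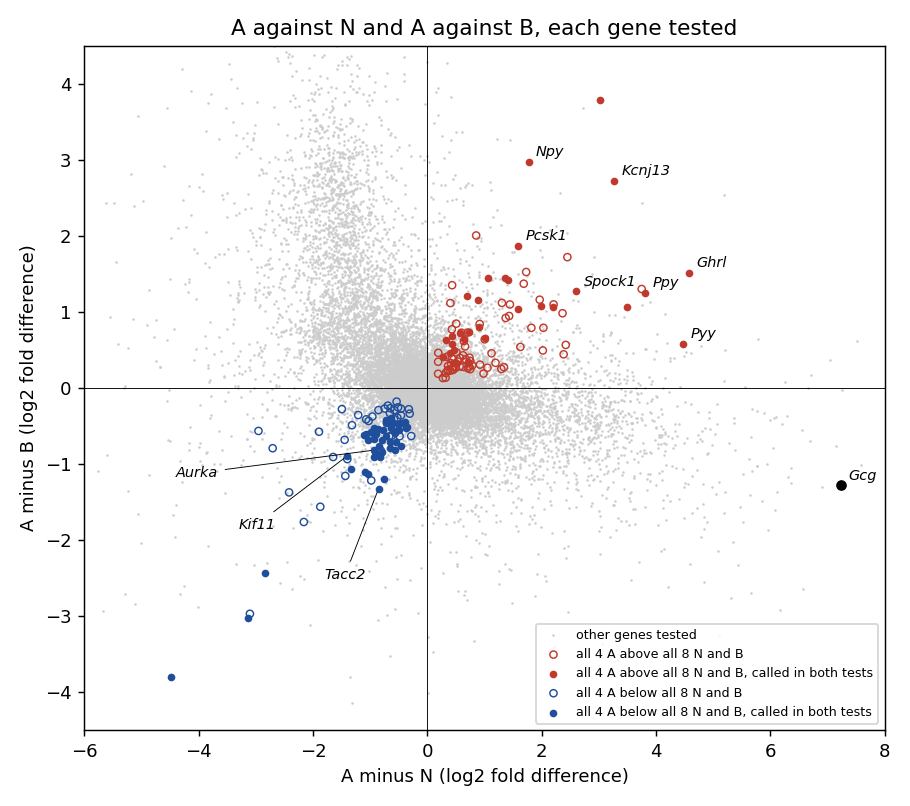
Log2 fold difference of A over N (x axis) and of A over B (y axis) for each gene tested, with red for genes whose 4 A values all lie above all 8 N and B values and blue for those whose A values all lie below; filled points passed both tests and 218 genes lie outside the axes. Both axes share the A libraries; Gcg lies at 7.24 and -1.28, in the quadrant of genes that stepped, while Ghrl lies at 4.58 and 1.52.

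Members with every A value above had a median mean level of 27.5 CPM in A, with a range of 0.464 to 3578 CPM, and 88 of the 96 were protein coding. Those with every A value below had a median of 14.5 CPM in A and a highest mean of 155 CPM, and 81 of the 87 were protein coding. The protein coding share of all genes tested is not given here, so these counts are no trait of the members. The smaller of the differences from N and from B had a median of 0.46 on the log2 scale among members above and -0.57 among members below. Among the 31 higher genes that passed both tests, B was also higher than N for 8 and lower for 1. Among the 47 lower genes, B was lower than N for 6 and higher for 0. For the other 22 and 41, B and N did not differ past the threshold, which does not show that they were alike. The share of all genes tested with B called above or below N is not given here. These counts of B against N are thus no trait of the members.

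Ghrl, Ppy and Pyy, 3 of 15 tested delta, PP and epsilon cell genes, rose in A over both N and B (0.232% of all genes tested did), and 0 of the 15 fell below both. Ghrl, which encodes ghrelin, had 399.8, 408, 485 and 556 CPM in A, against 11.8, 21.9, 22.2 and 21.6 CPM in N and 124, 132, 241 and 149 CPM in B. The lowest A library was well above the highest B library. The difference was 4.58 ± 0.27 against N (adjusted p = 3.32e-08) and 1.52 ± 0.24 against B (adjusted p = 0.0015). Ghrl lies on chromosome 6 at 113693080 to 113696841, on the minus strand of GRCm39, and overlaps Gm44033, which is also a member, and Gm26982, both on the other strand. The labels do not say whether counting used strand, so reads of overlapping genes cannot be told apart.

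Ppy and Pyy, which encode pancreatic polypeptide and peptide YY, are neighbours on the minus strand of chromosome 11, at 101990756 to 101992145 and 101997502 to 101998658. Ppy had 302, 255, 252 and 436 CPM in A, against 20.5, 28.5, 17.0 and 23.0 CPM in N and 88.7, 101, 148 and 185 CPM in B. Its difference was 3.81 ± 0.27 against N (adjusted p = 2.08e-07) and 1.25 ± 0.25 against B (adjusted p = 0.00531). Pyy was the most abundant member, with 3902, 2982, 3870 and 3560 CPM in A, against 179, 164, 154 and 148 CPM in N and 2406, 2092, 2683 and 2361 CPM in B. Its A values lay above all others, and the difference from B was the smaller, at 0.58 ± 0.13 (adjusted p = 0.0112), against 4.47 ± 0.15 from N (adjusted p = 5.74e-10). B was higher than N for all 3 of Ghrl, Ppy and Pyy, so B lay between A and N.

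Npy encodes neuropeptide Y, a relative of Ppy and Pyy. It had 59.7, 125, 37.4 and 37.3 CPM in A, against 24.9, 27.2, 14 and 9.72 CPM in N and 1.93, 4.61, 15.3 and 11.2 CPM in B. The A libraries lay above the rest but spread widely among themselves, with the second replicate highest. The difference was 1.77 ± 0.56 against N (adjusted p = 0.0203) and 2.98 ± 0.59 against B (adjusted p = 0.00557), and the call against both was lost without A replicate 2, N replicate 3 or N replicate 4. Npy stands on the list of beta cell genes, of which 20 were tested. In A, 8 of the 20 exceeded B (9.12% of all genes tested did). Against N, 10 were higher and 1 lower (23.8% and 21.3% of all genes tested were). Only Npy passed both tests and was a member.

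Beta cell genes took 1.54%, 2.37%, 0.674% and 1.03% of raw counts in the 4 A libraries, against 0.648%, 0.691%, 0.326% and 0.334% in N and 0.622%, 0.555%, 0.578% and 0.550% in B. A replicates 1 and 2 carried the most, and A exceeded its own numbered N and B library in 4 of 4 pairs. The exact two-sided permutation test of A against B gave p = 0.0286, the smallest that 4 against 4 allows, and an adjusted p of 0.0732 over the lists; against N it gave p = 0.0571. Over the 4 numbered pairs the exact sign-flip test gave p = 0.125 for each, the smallest that 4 pairs allow. The part of beta cell message in the values of Npy and Pcsk1 was not tested. Delta, PP and epsilon cell genes took 0.794% ± 0.102 in A, against 0.0538% ± 0.00375 in N and 0.566% ± 0.0579 in B. Of the 15 such genes tested, 7 were higher in A than in N and 3 lower (23.8% and 21.3% of all genes tested were). Against B, 4 were higher in A and 0 lower (9.12% and 4.63% of all genes tested were). Of 16 tested gut endocrine and other peptide genes, 0 passed both of edgeR's tests, 0 did at an unadjusted p under 0.05, and DESeq2 called 0.

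**Figure D2:**
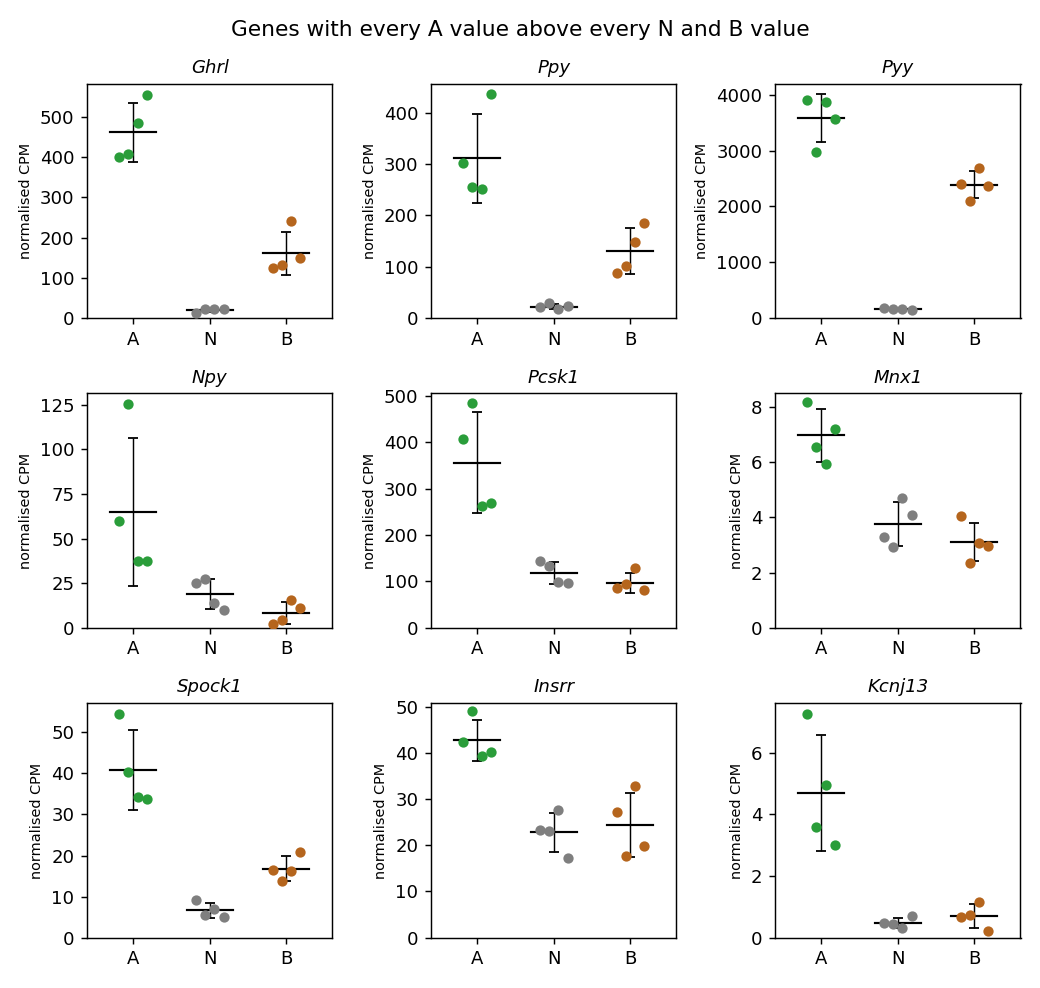
Normalised CPM in each library for 9 genes whose A values all lie above every N and B value, with groups A, N and B from left to right, 1 point a library, the black line at the mean and the bars at 1 SD (n = 4). Ghrl, Ppy and Pyy have B above N, whereas Npy, Pcsk1 and Mnx1 stand high in A with B at or below N.

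Pcsk1, which encodes the prohormone convertase PC1/3 that cuts proinsulin and other prohormones, had 406, 485, 264 and 270.1 CPM in A, against 143, 133, 98.8 and 97.6 CPM in N and 85.7, 94.7, 128 and 80.7 CPM in B. The lowest A value, 264 CPM, lay well above the highest of the others, 143 CPM. The difference was 1.59 ± 0.22 against N (adjusted p = 9.42e-05) and 1.87 ± 0.22 against B (adjusted p = 0.000464). B and N did not differ past the threshold, with a difference of B over N of -0.28 (adjusted p = 0.285). Mature alpha cells use a different convertase, PC2, to make glucagon.

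Pcsk1 was the only one of 30 tested secretory granule genes to pass both tests. Scg2, which encodes the granule protein secretogranin II, was a member with 692, 685, 572 and 658 CPM in A, against 150.3, 146, 99.0 and 104 CPM in N and 481, 415, 485 and 535 CPM in B. Its difference from B, 0.44 ± 0.15, did not pass (adjusted p = 0.0665). For the granule list as a whole the median difference was 2.41 from N and -0.29 from B, beside -0.02 and 0.01 over all genes tested. A was higher than N for 27 of the 30 (23.8% of all genes tested were). Against B, A was lower for 5 and higher for 1 (4.63% and 9.12% of all genes tested were). For most of the list A thus did not differ from B past the threshold.

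Among transcription factors of endocrine cells, 17 were tested and Mnx1 alone passed both tests. Mnx1, a homeobox factor needed for beta cell formation in the mouse, had 8.19, 6.55, 5.94 and 7.20 CPM in A, against 3.29, 2.93, 4.70 and 4.07 CPM in N and 4.04, 2.36, 3.08 and 2.98 CPM in B. Its level was low, its A values lay above all others, and N and B overlapped. The difference was 0.89 ± 0.26 against N (adjusted p = 0.0122) and 1.16 ± 0.26 against B (adjusted p = 0.0104). None of 27 tested endocrine progenitor genes passed both tests or was a member. At an unadjusted p under 0.05 in both of edgeR's tests 0 of them turned, and DESeq2 also called 0.

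Among single genes, Spock1, which encodes the matrix proteoglycan testican-1, averaged 40.8 ± 9.68 CPM in A, against 6.70 ± 1.81 CPM in N and 16.8 ± 3.01 CPM in B. It rose by 2.61 ± 0.22 over N and 1.28 ± 0.21 over B (adjusted p = 1.16e-06 and 0.00213). Insrr, which encodes the insulin receptor-related receptor, an alkali sensor, had 42.4, 49.2, 39.4 and 40.2 CPM in A, against 23.3, 23.0, 27.7 and 17.2 CPM in N and 27.2, 17.7, 32.8 and 19.9 CPM in B. It rose by 0.91 ± 0.19 over N and 0.81 ± 0.19 over B (adjusted p = 0.00218 and 0.0154), and lost the call without A replicate 2.

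Kcnj13 encodes the inward rectifier potassium channel Kir7.1. It fell outside the rule for named genes because its mean level was low, and was chosen after its values were seen. It had 7.26, 3.58, 4.97 and 3.00 CPM in A, against 0.47, 0.436, 0.306 and 0.706 CPM in N and 0.667, 0.75, 1.15 and 0.217 CPM in B. The gap between its lowest A and highest other value was the widest of all members above, at 1.31 on the log2 scale of CPM plus 0.1. It rose by 3.27 ± 0.51 over N and 2.73 ± 0.50 over B (adjusted p = 0.000224 and 0.00339). The gene lies inside Gigyf2 on the other strand, and reads of the 2 cannot be told apart. Fgf9, which encodes a fibroblast growth factor, rose by 1.07 ± 0.39 over N and 1.45 ± 0.39 over B on the log2 scale (adjusted p = 0.0385 and 0.0269), and lost the call with RLE factors, with no filter and with any of 7 libraries left out.

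Of the remaining higher genes named by the rule, some were large in fold and others small but tight. Scin, which encodes the actin-severing protein scinderin, had 38.1, 31.6, 70.4 and 37.4 CPM in A, against 3.58, 2.14, 6.57 and 3.56 CPM in N and 21.3, 23.4, 27.1 and 13.3 CPM in B. Its call against B was near the threshold (1.06 ± 0.32, adjusted p = 0.0458). The call against both groups was lost with any of the 4 A or 4 B libraries left out, and without N replicate 1 or 4. Cers6, a ceramide synthase, had 91.4, 76.4, 83.7 and 84.8 CPM in A, against 66.4, 48.4, 53.7 and 58.3 CPM in N and 59.6, 42.3, 51.7 and 50.6 CPM in B. Eid1, which encodes an inhibitor of EP300 and a partner of the retinoblastoma protein, averaged 178 ± 15.9 CPM in A, against 128 ± 15.7 CPM in N and 125 ± 12.7 CPM in B. The differences of Cers6 were 0.57 from N and 0.72 from B, and those of Eid1 were 0.47 and 0.50. Both kept their calls in all 20 other fits, which changed the scaling, filter, tool, table or block or left out 1 library.

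The others named by the rule were Pcdhb14, a clustered protocadherin, Gm609 with the overlapping pseudogene Gm5406, Ppp1r14c, an inhibitor of protein phosphatase 1, Tmtc1, an endoplasmic reticulum mannosyltransferase, Aqp11, an aquaporin, Ttc30b, a part of the intraflagellar transport machinery, and Ccdc126. Gm609 and Gm5406 overlap on opposite strands of chromosome 16 and may count shared reads. Their differences ranged from 0.65 to 2.20 over N and from 0.64 to 1.43 over B. Aqp11 had an adjusted p of 0.0474 for the weaker of its differences. It lost its call with the replicate number as a block, at an edgeR adjusted p of 0.0542 against N, and kept it in only 7 of the 20 other fits. Of the 23 higher genes examined by name that passed both tests, 11 kept the call in all 20 other fits: Cers6, Eid1, Ghrl, Gm609, Kcnj13, Mnx1, Pcsk1, Ppy, Pyy, Spock1 and Tmtc1.

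Of 40 mitosis genes tested, 11 were lower in A than in N and in B (0.377% of all genes tested were), 0 were higher, and 38 had their lowest mean in A (2819 of all 17230 genes tested did). The median difference was -0.93 from N and -0.45 from B, beside -0.02 and 0.01 over all genes tested. Of the 47 lower members past both tests, 7 stood on this list (14.9%), which makes up 0.232% of the genes tested. The count of 11 was 4 without A replicate 1, 5 without B replicate 3, 7 without A replicate 3, N replicate 4 or B replicate 2, 7 without the filter on low counts, 4 without normalisation factors and 12 with the replicate block. The exceptions were Spc25, a kinetochore component, which was higher in A than in N by 0.67 ± 0.17 and lower than in B by 0.63 ± 0.17, and Kif23, a kinesin of cytokinesis, whose A and B values did not differ past the threshold.

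Aurka encodes Aurora kinase A, which matures centrosomes and builds the spindle. It had 17.6, 18.8, 16.9 and 18.4 CPM in A, against 32.8, 30.9, 35.5 and 37.1 CPM in N and 29.7, 35.0, 33.5 and 27.9 CPM in B. The 4 A libraries were tight and far below the rest. The difference was -0.93 ± 0.11 from N (adjusted p = 2.92e-05) and -0.82 ± 0.11 from B (adjusted p = 0.000885). Kif11 encodes the kinesin Eg5, which pushes spindle poles apart. It had 15.1, 22.4, 10.9 and 22.2 CPM in A, against 48.3, 39.3, 49.4 and 50.5 CPM in N and 32.8, 33.8, 34.4 and 30.3 CPM in B. Its A libraries all lay below, and B was itself lower than N. The difference was -1.41 ± 0.20 from N (adjusted p = 9.11e-05) and -0.90 ± 0.20 from B (adjusted p = 0.00902). Aurka and Kif11 were the only 2 of the 30 lower genes examined by name that kept the call in all 20 other fits.

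Hmmr, which encodes a microtubule-associated receptor of hyaluronan, had 19.8, 27.5, 13.3 and 23.5 CPM in A, against 35.0, 41.3, 40.0 and 41.4 CPM in N and 37.1, 38.1, 40.4 and 34.2 CPM in B. Racgap1, which encodes part of the centralspindlin complex of cytokinesis, had 55.0, 58.4, 44.0 and 46.6 CPM in A, against 82.3, 68.2, 74.5 and 76.8 CPM in N and 98.6, 96.7, 80.5 and 81.2 CPM in B. Ttk, the kinase Mps1 of the spindle checkpoint, Spag5 and Gtse1, which act on spindle microtubules, and Tacc2, a centrosomal protein, also fell. The differences of these 4 ranged from -0.92 to -0.66 from N and from -1.32 to -0.71 from B. In Gtse1 the highest A value was 10.56 CPM, against lowest values of 10.73 CPM in N and 10.60 CPM in B, so it just met the rule.

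Cdc25c, the phosphatase that activates the mitotic kinase Cdk1, had 4.77, 5.47, 2.53 and 5.17 CPM in A, against 10.5, 10.9, 7.83 and 8.92 CPM in N and 9.75, 9.72, 11.8 and 7.31 CPM in B. The difference was -1.09 ± 0.26 from N and -1.11 ± 0.26 from B (adjusted p = 0.00406 and 0.0129). Ccna2, the cyclin of S phase and early mitosis, had 40.2, 56.7, 38 and 57.6 CPM in A, against 109, 86.9, 102 and 107 CPM in N and 71.1, 77.2, 84.7 and 59.0 CPM in B. Ccnf, the F-box cyclin, averaged 20 ± 2.42 CPM in A, against 34.6 ± 3.26 CPM in N and 32 ± 4.47 CPM in B. Troap, a spindle assembly protein, averaged 3.04 ± 1.19 CPM in A, against 6.26 ± 0.973 CPM in N and 6.64 ± 1.47 CPM in B. Ccnb1 and Ccnb2, the B-type cyclins, passed both tests but were not members, since some A and B values overlapped. Mki67, the Ki-67 proliferation marker, was lower in A than in N by 1.69 ± 0.21, and its difference from B of -0.38 ± 0.20 did not pass (adjusted p = 0.238).

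**Figure D3:**
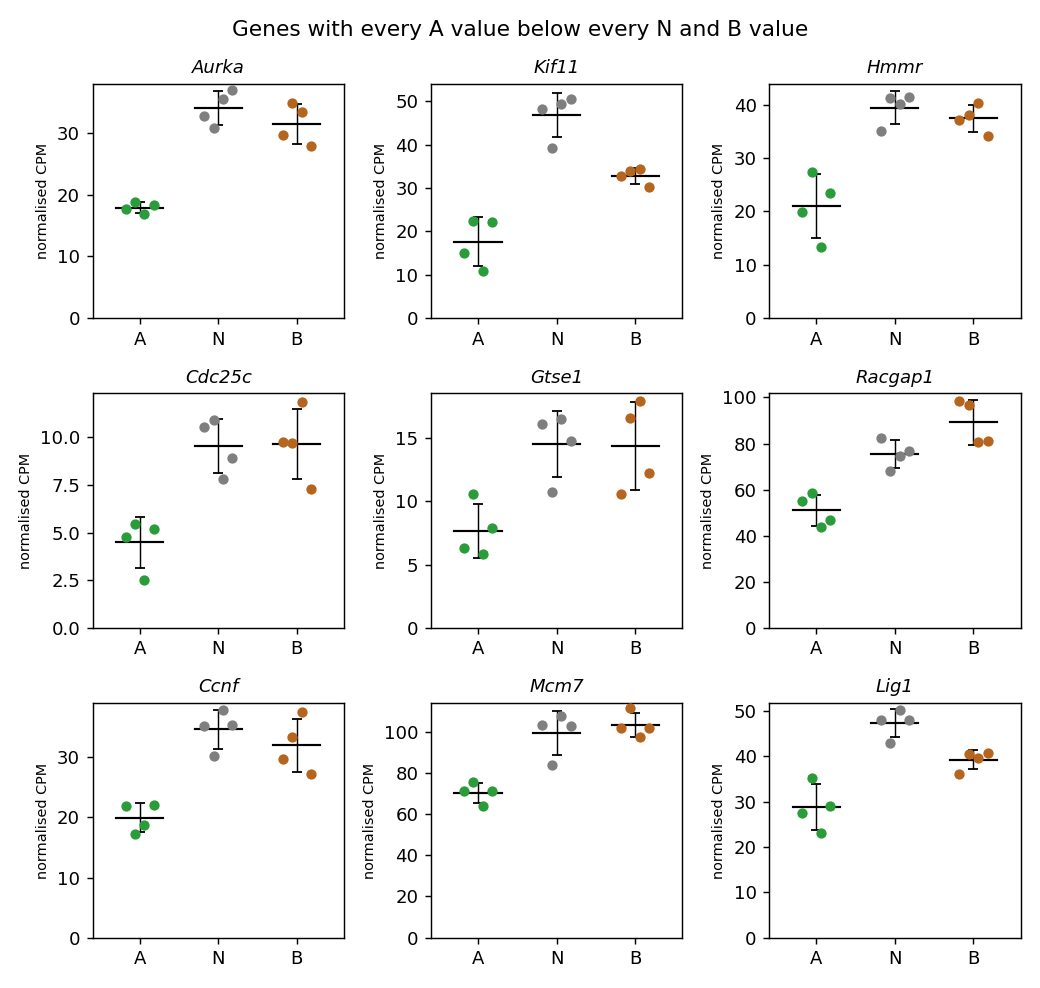
Normalised CPM in each library for 9 cell division and DNA replication genes whose A values all lie below every N and B value, with groups A, N and B from left to right, 1 point a library, the black line at the mean and the bars at 1 SD (n = 4). Aurka sits at 16.9 to 18.8 CPM in A and at 27.9 CPM or more in the other groups; in Kif11 and Lig1 B lies between A and N.

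Of 36 DNA replication genes tested, Mcm7 and Lig1 were lower in A than in N and in B (0.377% of all genes tested were), and 0 were higher. The list had 30 genes with their lowest mean in A, against 2819 of all 17230 genes tested, and its median difference was -0.57 from N and -0.33 from B. Mcm7, a subunit of the replicative helicase, had 71.3, 75.4, 63.7 and 71.4 CPM in A, against 103, 84.0, 108 and 103 CPM in N and 102, 111, 97.4 and 102 CPM in B. It fell by 0.50 against N and by 0.55 against B on the log2 scale (adjusted p = 0.00172 and 0.00401). Lig1, the ligase that joins Okazaki fragments, had 27.6, 35.3, 23.2 and 29.1 CPM in A, against 47.9, 43.0, 50.2 and 48.0 CPM in N and 36.1, 40.4, 39.7 and 40.8 CPM in B. Timeless, a fork protection factor, Hells, a chromatin remodeller, Cdca5, which holds sister chromatids together, and Cenpp, a centromere protein, were further lower genes that the rule named.

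The fall against N depended on the scaling. Without normalisation factors the median of all genes moved by 0.57 in A over N, 36 of 40 mitosis genes and 15 of 36 replication genes were lowest in A, and 4 and 0 passed both tests. Of the 47 lower members that passed both tests, 12 still did, and 21 of the 87 members below were still below every other value, beside 31 of 31 and 93 of 96 of those above. In the authors' deposited TPM, which carry no such factors, the A mean was below the B mean for all 47. Against N, the A mean in TPM was below for 10 and above for 37, the reverse direction. The part of the factors in that reversal was not tested. Mitosis genes took 0.115% ± 0.0159 of raw counts in A, against 0.148% ± 0.00716 in N and 0.158% ± 0.0129 in B, and the A share was lower in 4 of 4 numbered pairs of each comparison (exact two-sided permutation p = 0.0286 for each, adjusted p = 0.0532 against N and 0.0732 against B). Over the 4 numbered pairs the exact sign-flip permutation test gave p = 0.125 for each, the smallest that 4 pairs allow. Replication genes took 0.161% ± 0.017 in A, against 0.158% ± 0.011 in N and 0.202% ± 0.012 in B (exact two-sided permutation p = 0.714 against N and 0.0571 against B).

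**Figure D4:**
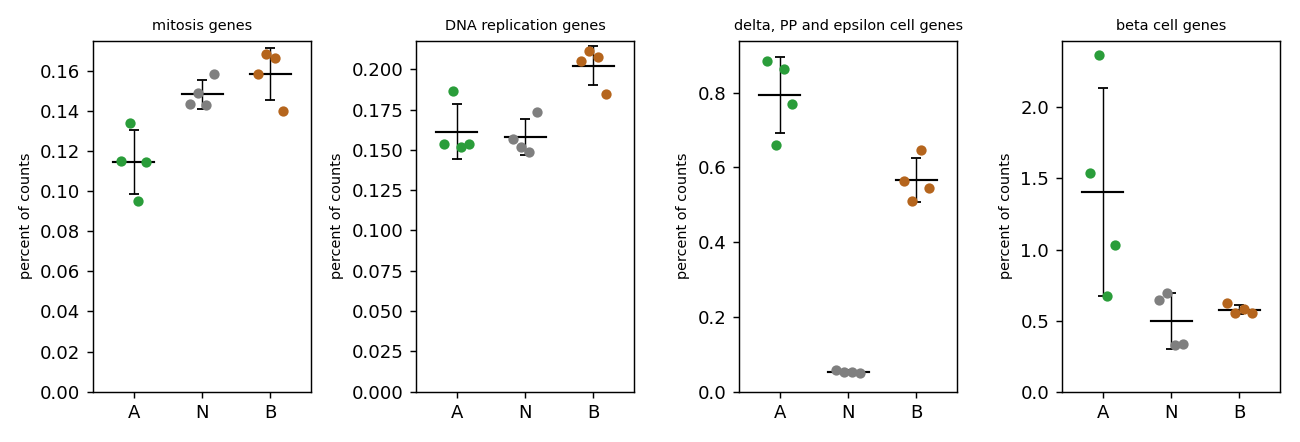
Percent of raw counts taken by 4 gene lists in each library, without normalisation factors, with groups A, N and B from left to right, 1 point a library, the black line at the mean and the bars at 1 SD (n = 4). Every A value of the mitosis share lies below every N and B value, the replication share in A overlaps N and B, and the beta cell share is spread in A, at 0.674% to 2.37%.

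Promoters of late cell cycle genes often hold a CHR element, bound by the DREAM and MuvB complexes that switch these genes off in resting cells. The 300 bases around the start of each gene (250 before and 50 after, from RefSeq on GRCm38.p6) were searched for TTTGAA or TTCGAA on both strands, with 1 window a gene and overlapping matches counted once. Between 100 bases before and 50 after the start, the letters were found in 13 of 38 genes (34.2%) among the lower members that passed both tests and had a window, and in 1 of 21 (4.76%) among the higher ones. They were found in 5.52% of the 12438 tested genes with a window and in 8.68% of all 27025 windows. A match is a description of letters, not of binding, and the mitosis genes are known for this element, which 25 of 33 on that list held. The stretches from 100 bases before to 20 after the start are shown for 5 lower genes, because they let the position of the letters be compared; capitals mark the CHR letters or their reverse complement, and each is written 5′ to 3′ on the gene's strand.
Kif11 (GRCm38.p6, chr19:37376282-37376401, plus strand): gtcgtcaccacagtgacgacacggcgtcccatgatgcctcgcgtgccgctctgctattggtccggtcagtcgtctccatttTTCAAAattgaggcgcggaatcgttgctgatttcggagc
Cdca5 (GRCm38.p6, chr19:6084997-6085116, plus strand): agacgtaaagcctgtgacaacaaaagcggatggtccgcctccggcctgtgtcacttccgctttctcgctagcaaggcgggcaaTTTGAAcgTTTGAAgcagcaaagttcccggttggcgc
Ccnf (GRCm38.p6, chr17:24251390-24251509, minus strand): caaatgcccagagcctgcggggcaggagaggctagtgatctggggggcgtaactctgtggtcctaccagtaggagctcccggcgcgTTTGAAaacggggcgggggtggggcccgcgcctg
Hmmr (GRCm38.p6, chr11:40733418-40733537, minus strand): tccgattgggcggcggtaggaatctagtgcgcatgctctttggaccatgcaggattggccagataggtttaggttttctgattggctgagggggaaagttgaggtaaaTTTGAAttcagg
Ttk (GRCm38.p6, chr9:83834589-83834708, plus strand): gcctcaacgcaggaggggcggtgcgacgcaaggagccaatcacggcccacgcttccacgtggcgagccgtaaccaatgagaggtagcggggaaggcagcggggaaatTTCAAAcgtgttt
The first of these letters lay 19, 17 and 14 bases before the start in Kif11, Cdca5 and Ccnf, and 8 and 7 bases after it in Hmmr and Ttk. Cdca5 held the letters a second time, 9 bases before the start.

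Other lower members had roles outside division or roles less settled. Psmb9, a subunit of the immunoproteasome and the only 1 of 22 interferon response genes to pass both tests, fell by 0.75 against N and by 1.2 against B. Psph, the last enzyme of serine synthesis, was the only 1 of 22 ATF4 and amino acid response genes to do so, at -0.59 and -0.47. Cpne2, a copine, Prkd1, protein kinase D1, Bcl6b, a transcriptional repressor, Pctp, the phosphatidylcholine transfer protein, and Fam214b completed the lower genes named by the rule, with differences of -1.34 to -0.83 from N and -1.06 to -0.61 from B. With the replicate number as a block, edgeR's adjusted p against B was 0.0653 for Prkd1, 0.0596 for Pctp, 0.0608 for Fam214b and 0.0527 for Kif20a, a mitotic kinesin, and these calls were lost. Of the 20 other fits in all, Prkd1 and Fam214b each kept the call in 8, Kif20a in 7 and Pctp in 4.

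Each of the other lists gave few turns or 0. Of 8 tested eosinophil genes, Alox15 and Ccr3 were higher in A than in N and B (0.232% of all genes tested were), but were not members. Alox15, an arachidonate lipoxygenase, had 43.7, 15.4, 3.81 and 14.7 CPM in A, against 4.05, 5.23, 6.15 and 1.76 CPM in N and 0.185, 0.788, 0 and 0 CPM in B. A replicate 1 was far above the others and A replicate 3 lay within N. Eosinophil genes took 0.00989%, 0.00308%, 0.000715% and 0.00316% of raw counts in A, against 0.00184% to 0.0048% in N and at most 0.000458% in B, and the part of these cells in other values was not tested. With the replicate number as a block edgeR's adjusted p against N was 0.0629 for Alox15 and 0.0743 for Ccr3, and both calls were lost. In the lists of mesenchymal, endothelial, acinar, macrophage, Notch, unfolded protein response and mitochondrially encoded genes, 133 genes in all, 0 passed both of edgeR's tests, 0 did at an unadjusted p under 0.05, and DESeq2 called 0. All 13 mitochondrially encoded genes still had their lowest mean in A (2819 of all 17230 genes tested did). Their median difference was -0.36 from N and -0.36 from B. They took 0.495% ± 0.0996 of raw counts in A, against 0.473% ± 0.227 in N and 0.570% ± 0.0976 in B. Of the 78 members past both tests, 38 overlapped another annotated gene, and their counts may hold reads of it. The share of all genes tested with such an overlap is not given here, so this count is no trait of the members.

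**Figure D5:**
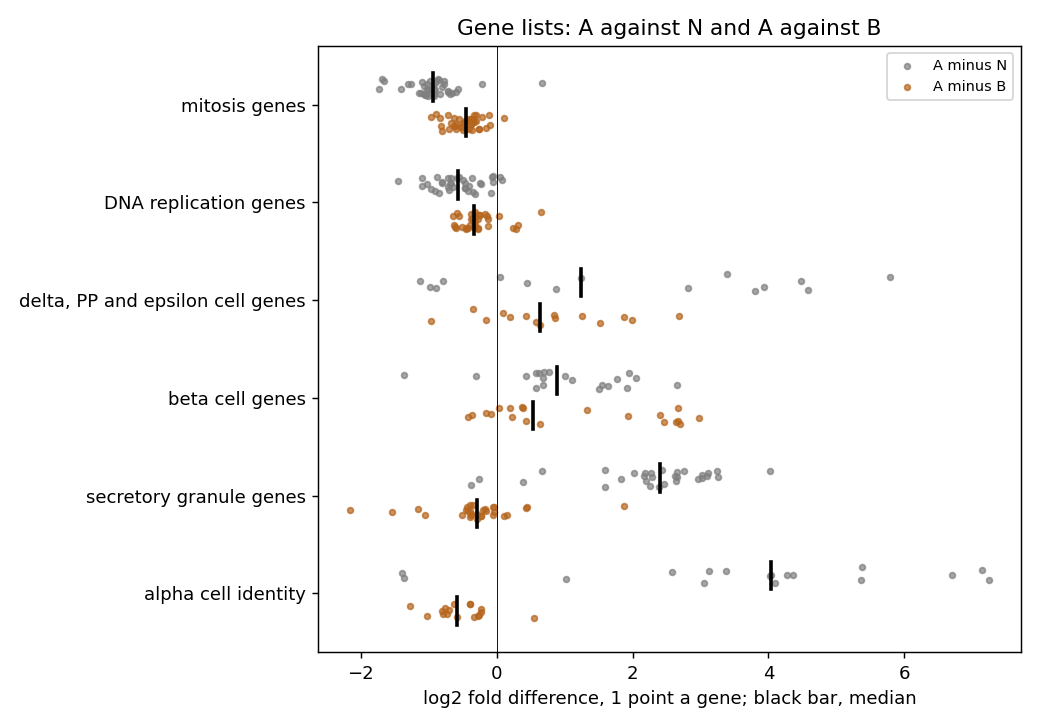
Log2 fold difference of A over N (grey) and of A over B (brown) for each tested gene of 6 lists, with the list median as a black bar. Mitosis genes mostly lie left of 0 against both groups, with medians of -0.93 and -0.45. Alpha cell identity genes mostly lie right of 0 against N, with 2 called lower, and mostly left of 0 against B.

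At the edge of the rule, the genes just inside it were B3galt6, Plch1 and Pigq above and Etf1, Gtse1 and Incenp below, and those just outside were Ppt1, Epdr1 and Asph above and Mpo, Arid5a and Asap1 below. B3galt6, for instance, had a lowest A value of 31.15 CPM, against a highest of 31.14 CPM in B, while Epdr1 had a lowest A value of 22.94 CPM, against a highest of 22.96 CPM in B. Epdr1 and Asph passed both tests without being members, and 9 higher and 18 lower genes did so in all. Conversely 65 members above and 40 below did not pass both tests, among them Epcam, an epithelial adhesion molecule with 436 to 498 CPM in A, against 183 to 282 CPM in N and 389 to 430.2 CPM in B.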

How the data were processed

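RNA of 12 sorted samples was measured as estimated counts, which the authors deposited per gene beside TPM, per the file headers. STAR 2.5.2b and DRAGEN are named in the submitters' processing notes, with the builds GRCm38 and GRCm39; the notes do not say which made which table. The table holding the reporter sequences, with GRCm39 positions, was used. Estimated counts were rounded, low genes removed with filterByExpr, and all 12 libraries fitted together by group with edgeR 4.0.16 in R 4.3.3 (TMM factors, glmQLFit and glmQLFTest), with Benjamini-Hochberg adjustment at 0.05 over 17230 genes. The deposited TPM served as a description only. List shares were compared by exact permutation over 70 splits. Alternatives were RLE, upper quartile and no factors, DESeq2 1.42.0, other filters, the mm10 table, a replicate block and each library left out. The code was tested on simulated data.

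Members and lists were chosen with earlier results of these data known. Named genes were Gcg and the reporters, the 20 highest and 20 lowest members past both tests with a mean log2 CPM of at least 2, ranked by the smaller difference, the 3 leading genes of each list, and 3 genes on each side of the rule's edge. Other names were chosen after their values were seen. Same-numbered libraries deviated together (r = 0.11 to 0.40 for A and B, 0.13 to 0.28 for A and N), and replicates came from different mothers, so same-numbered A libraries were taken as paired with N and B in the replicate block and in a sign-flip test of the shares, added after the data were seen; all other p-values use no pairing; between B and N the lowest r was 0.038. p-values measure the spread between these samples.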

Additional observations from a re-analysis of the deposited data

Results flagged for a closer look

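Among 147 groups of 4 libraries examined, 6 held 1 library far from the other 3, where chance gives about 1 in 20. Gcg in A replicate 4 was the highest of its group at 21975 CPM, against 12561 to 13976 CPM in the other A libraries. Scin in A replicate 3 was the highest at 70.4 CPM, against 31.6 to 38.1 CPM. Ghrl in N replicate 1 was the lowest at 11.8 CPM, against 21.6 to 22.2 CPM in the other N libraries. Cpne2 in N replicate 3 was the lowest at 5.69 CPM, against 9.36 to 9.91 CPM. Cenpp in N replicate 2 was the highest at 8.04 CPM, against 5.29 to 5.58 CPM. The DNA replication share in A replicate 2 was the highest at 0.187% of raw counts, against 0.152% to 0.153% in the other A libraries.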

How the results depend on the processing

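Genes called higher and lower in the contrast with the N and B average numbered 1341 and 349, those past both tests 40 and 65, and members above and below 96 and 87. Without normalisation factors these became 5293 and 153, 148 and 18, and 301 and 21. With DESeq2 there were 765 lower in the contrast and 62 and 117 past both tests. Leaving out each library gave 904 to 1491 and 179 to 523 in the contrast, 20 to 51 and 29 to 98 past both tests, and 108 to 199 and 91 to 186 members, which fewer libraries must raise. Without A replicate 1 the tests called 20 and 29, and without N replicate 2 they called 51 and 98. Without N replicate 4 they called 24 higher. The lower count was also 43 without A replicate 3, and 42, 36 and 38 without B replicates 1, 2 and 3. Chosen after the data were seen, leaving out the libraries numbered 3 gave 133 lower in the contrast, 25 lower past both tests, and 240 and 181 members. The libraries numbered 3 held little Y-linked message, at 0.566 CPM in A, 0.140 CPM in N and 0.218 CPM in B. The other libraries held 61.5 to 183 CPM in A, 34.8 to 86.1 CPM in N and 53.7 to 157 CPM in B. In each group replicate 1 was highest, followed by 4, 2 and 3. The part of embryo sex in the results was not tested. Leaving out A replicates 1 and 2 gave 756 and 127, 10 and 19, and 339 and 351, with 17 of the 78 members past both tests still called. The cause was not tested. The mitosis count of 11 was 4 without A replicate 1 and 4 without factors. The replicate block gave 1505 and 485 in the contrast and 53 and 71 past both tests, and of the named genes the calls of Aqp11, Prkd1, Pctp, Fam214b, Kif20a, Ccr3 and Alox15 were lost under it. No named gene examined changed the sign of its difference from the N and B average in any alternative. That check did not cover the sign against N alone, and without factors the median of A over N moved by 0.57. Where A values fall near 1 CPM, depth limits what can be called.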

Other observations

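Some genes of cilia appeared among the members above, chosen here after their values were seen and with no test of the group. Of all genes tested, 0.557% were members above. The share among genes of cilia was not counted, so those named here are no trait of the members. Foxj1, the factor that switches on motile cilium genes, had 1.31, 2.12, 1.06 and 1.79 CPM in A, against 0.277 to 0.77 CPM in N and 0.371 to 1.03 CPM in B. Nme5 and Drc3, proteins of the axoneme, averaged 5.62 and 5.55 CPM in A, against 1.21 and 2.24 CPM in N and 2.61 and 2.55 CPM in B. Mks1, of the ciliary transition zone, had 14.1 to 15.5 CPM in A, against 5.21 to 11.8 CPM in N and 11.7 to 12.3 CPM in B. None of these 4 passed both tests, whereas Ttc30b did.

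Single genes that follow were chosen after their values were seen. Erp29, a chaperone of the endoplasmic reticulum, averaged 157 ± 5.46 CPM in A, against 125 ± 12.1 CPM in N and 101 ± 7.89 CPM in B, and B was lower than N. Npc2, a lysosomal cholesterol carrier, averaged 137 ± 6.15 CPM in A, against 97.2 ± 5.07 CPM in N and 109 ± 11.4 CPM in B. Lta, which encodes lymphotoxin alpha, was listed at 0 in 4 of 4 A libraries, against 1.03 to 2.71 CPM in N and 0.0375 to 0.162 CPM in B. The B values lay near the floor, so the separation of A from B rests on few reads. Macrophage and leukocyte genes took 0.0365% of raw counts in A, against 0.0932% in N and 0.0122% in B. Their part in the values of Lta was not tested.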
